A study of Rattus norvegicus with 8 samples.

Results

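The genes described here are 5 antimicrobial genes of the intestine, *Defa24*, *RatNP-3b*, *Defa5*, *Lyz2* and *Pla2g2a*, taken from the array annotation. They are 5 of the 14217 genes measured, each with 1 of the 31099 probe sets. They were chosen by name with their measured levels in all 4 groups known, so their values, and any call of theirs in the fit over all genes, are given as a description and support nothing. The data are 8 arrays (Affymetrix Rat Genome 230 2.0) of intestinal epithelium from Wistar rats, female by the methods and aged 4 months by the labels, with the cells loosened from the proximal small intestine by DTT and EDTA. The groups, of 2 arrays each, were water restriction for 12 h (WR), deep-sea water of hardness 1200 for 3 days (DSW1200), selenium water for 3 days (SeW) and tap water for 3 days (TW). These durations are those of the labels. The paper's text also gives other durations for WR and TW, and a week of TW, DSW1200 or selenium water in its protein and ulcer experiments. SeW was made with selenite. All groups were rats of 1 strain, and WR differed from the other groups in the length of the treatment as well as in the water. No source used here says whether the 2 arrays of a group came from separate rats or from a pool, so p-values measure the spread between these arrays, which may be technical.

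Paneth cells sit at the base of the crypts of the small intestine, among the stem cells. They store antimicrobial proteins in granules and release them into the crypt lumen. Alpha-defensins are short cationic peptides that disrupt microbial membranes. Lysozyme cuts the peptidoglycan of bacterial walls, and the secreted phospholipase A2 of group IIA breaks down bacterial phospholipids. Alpha-defensins are also made by neutrophils in the rat, and lysozyme by macrophages, so not every member marks Paneth cells alone. *Defa24* encodes an enteric alpha-defensin. *RatNP-3b* and *Defa5* are named after neutrophil peptides of the rat, NP-3 for the first and NP-1 and NP-2 for the second among the synonyms in RefSeq.

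Some alpha-defensin genes are close copies of each other. RefSeq places 11 alpha-defensin genes that are not pseudogenes on rat chromosome 16, and 5 of them have a probe set of their own on the array. A probe set can therefore carry signal from a copy that has none, and the assignment of defensin signal to 1 gene is uncertain. To show how close 1 pair of copies is, the promoters of *RatNP-3b* and *Defa11*, a neighbouring gene without a probe set of its own, are printed 5′ to 3′ (RefSeq, GRCr8, 250 bases before to 50 after the start, both on the minus strand, chr16:77248928-77249227 and chr16:77237992-77238291). Capitals mark bases that differ between the 2 promoters or face a gap in their alignment.
RatNP-3b: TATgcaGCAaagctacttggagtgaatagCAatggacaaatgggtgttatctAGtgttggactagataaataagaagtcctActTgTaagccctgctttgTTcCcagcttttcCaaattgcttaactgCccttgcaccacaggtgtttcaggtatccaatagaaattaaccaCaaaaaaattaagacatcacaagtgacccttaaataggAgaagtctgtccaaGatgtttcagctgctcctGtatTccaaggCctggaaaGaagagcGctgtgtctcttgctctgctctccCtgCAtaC
Defa11: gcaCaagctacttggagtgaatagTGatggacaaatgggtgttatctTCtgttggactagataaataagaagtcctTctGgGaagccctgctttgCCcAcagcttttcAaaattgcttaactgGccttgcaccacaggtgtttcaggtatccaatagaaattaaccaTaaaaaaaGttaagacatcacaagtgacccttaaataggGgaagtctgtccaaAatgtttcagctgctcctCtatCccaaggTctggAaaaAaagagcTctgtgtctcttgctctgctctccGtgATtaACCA
Of 305 aligned positions, 270 (88.5%) were identical. Not every pair was this close, since the promoter of *Defa9*, another alpha-defensin gene, was 48.6% identical to that of *RatNP-3b* and 49.2% to that of *Defa11*. The promoters of *RatNP-3b*, *Lyz2* and *Pla2g2a* were 45.2% to 47.9% identical to each other. Transcripts and probe sequences were not compared, so these identities do not measure how much signal a probe set takes from a copy.

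The promoters of *Lyz2* (chr7:54797962-54798261, minus strand) and *Pla2g2a* (chr5:156359475-156359774, plus strand) are shown because the 2 genes followed different patterns between the groups. Capitals mark the letters CTTTGA, a core recognised by the TCF factors of the Wnt pathway, searched on both strands.
Lyz2: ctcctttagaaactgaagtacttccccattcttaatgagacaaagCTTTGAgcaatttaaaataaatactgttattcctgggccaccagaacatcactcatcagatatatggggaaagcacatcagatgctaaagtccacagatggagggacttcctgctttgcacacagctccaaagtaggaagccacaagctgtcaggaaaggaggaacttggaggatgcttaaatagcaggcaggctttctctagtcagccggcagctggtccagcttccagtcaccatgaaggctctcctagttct
Pla2g2a: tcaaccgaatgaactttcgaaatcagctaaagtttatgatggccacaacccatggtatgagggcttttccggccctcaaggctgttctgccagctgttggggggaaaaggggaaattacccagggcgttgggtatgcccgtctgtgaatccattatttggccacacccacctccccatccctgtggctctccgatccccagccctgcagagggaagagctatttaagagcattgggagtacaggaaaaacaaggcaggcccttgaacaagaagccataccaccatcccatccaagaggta
The motif was found once in the *Lyz2* promoter, 205 bases before the start on the plus strand, and was not among the letters of the *Pla2g2a* and *RatNP-3b* windows. It occurred in 16.1% of 33469 rat promoters of the same length. The letters TATAAA, in 14.2% of promoters, were in none of these 3. A match is a description of the letters and not a site of binding.

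The members did not move as 1 group. Levels are quantile normalized signal intensities, a linear unit without an absolute scale, in which values under 1 cannot be ordered, and differences are given as log2 of the first group over the second. *Defa24* and *RatNP-3b* were higher in WR, DSW1200 and SeW than in TW. *Pla2g2a* was above 1 in WR and SeW only. *Lyz2* lay above TW without overlap in WR and overlapped TW in DSW1200 and SeW. *Defa5* stayed under 1 on all 8 arrays. In bulk samples, fewer cells of a type and less RNA per cell cannot be told apart.

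The signal of *Defa24* was 367 and 502 on the WR arrays, 134 and 96.0 on the DSW1200 arrays and 225 and 137 on the SeW arrays, against 31.0 and 51.6 on the TW arrays. No 2 groups overlapped, although the lower SeW array (137) lay next to the higher DSW1200 array (134). Group means were 434 ± 95.7 under WR, 115 ± 27.0 with DSW1200, 181 ± 62.7 with SeW and 41.3 ± 14.5 in TW (SD, n = 2 each). The order of the levels was thus WR, SeW, DSW1200 and TW, and the SD ranges of SeW and DSW1200 overlapped. In mean log2 signal *Defa24* was 3.42 above TW with WR (10.7-fold), 1.50 above it with DSW1200 (2.84-fold) and 2.13 above it with SeW (4.39-fold), each with a standard error of 0.32. The difference in WR was the second highest of 9258 tested genes, that in SeW stood 30th and that in DSW1200 88th. SeW was 0.63 above DSW1200, and this difference was 0.27 without SeW replicate 1, 0.99 without SeW replicate 2 and 0.39 without DSW1200 replicate 2. These comparisons share the TW arrays, so they are not independent of each other.

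*RatNP-3b* had a signal of 39.6 and 56.2 under WR, 17.3 and 16.5 with DSW1200 and 39.6 and 22.9 with SeW, against 5.05 and 11.7 in TW. Both arrays of WR, DSW1200 and SeW lay above both TW arrays, and WR and SeW met at 39.6. The log2 difference from TW was 2.62 under WR, 1.13 with DSW1200 and 1.97 with SeW (standard error 0.44 each). SeW lay 0.84 above DSW1200, with both SeW arrays above both DSW1200 arrays, and 0.44 above it without SeW replicate 1. The DSW1200 difference from TW was 0.53 without TW replicate 1 and 1.74 without TW replicate 2. The order of group means was the same as for *Defa24*. Over the 8 arrays the log2 levels of the pair had a Pearson correlation of 0.974, a description over arrays that share group and library.

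**Figure D1:**
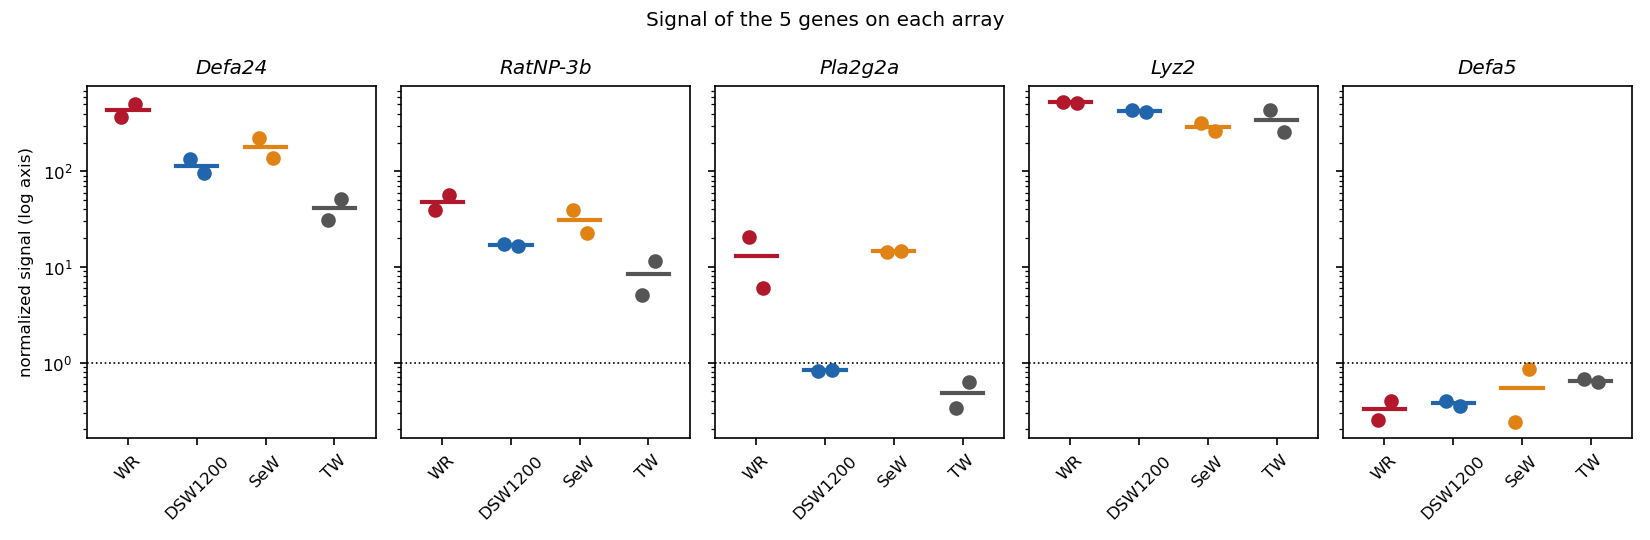
Quantile normalized signal (log axis) of the 5 genes on each array, with 2 points and a bar at the mean for each group, in the order WR, DSW1200, SeW and TW. The dotted line marks a signal of 1, under which values have no order. *Defa24* spans 31.0 to 502 and *Defa5* stays under 1 on all 8 arrays.

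*Pla2g2a* had a signal of 20.3 and 6.01 in WR and 14.5 and 14.6 in SeW, while DSW1200 (0.825 and 0.838) and TW (0.338 and 0.625) lay under 1. WR and SeW were above 1 on both arrays and did not overlap DSW1200 or TW. The 2 WR arrays differed from each other more than the 2 SeW arrays did. The gene fell below the level filter of 6.69 and was not tested, and no fold is given against groups under 1. The values as deposited had the same split, with 22.0 and 6.00 in WR and 21.2 and 20.1 in SeW, and at most 0.7 in DSW1200 and 0.4 in TW. *Pla2g2a* thus separated SeW from DSW1200, 2 groups that stood next to each other in *Defa24*.

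*Lyz2* had a signal of 531 and 524 under WR, 440 and 414 with DSW1200 and 318 and 264 with SeW, against 436 and 258 in TW. The WR arrays lay above all others. DSW1200 and SeW each overlapped TW, whose 2 arrays differed widely, and SeW lay below DSW1200 without overlap. The log2 difference from TW was 0.65 under WR, 0.35 with DSW1200 and -0.21 with SeW, and that of SeW from DSW1200 was -0.56 (standard error 0.23 each). The direction in SeW depended on scaling: on the values as deposited *Lyz2* was 0.76 above TW and 0.34 above DSW1200. As deposited, however, the median tested gene was itself 0.92 above TW and 0.84 above DSW1200 in SeW, so *Lyz2* lay below the median gene on either scale. The median tested gene was 0.38 above TW in WR and 0.055 in DSW1200 before scaling. Without TW replicate 1 the differences of *Lyz2* from TW were 1.03 under WR, 0.72 with DSW1200 and 0.17 with SeW, and without TW replicate 2 they were 0.27, -0.03 and -0.59. The SeW difference from TW was -0.35 without SeW replicate 1 and -0.08 without SeW replicate 2. The correlation of *Lyz2* with *Defa24* over the arrays was 0.424 and with *RatNP-3b* 0.235.

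*Defa5* lay between 0.238 and 0.85 on the 8 arrays, below any level that can be ordered. RefSeq's *Lyc2*, a second lysozyme gene whose synonyms include Lyz2, has no probe set of its own.

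Of the 5 members, 3 passed the level filter, and the counts that follow describe them and support nothing further. *Defa24* was the 1 gene past an adjusted p of 0.05 between WR and TW (limma, Benjamini-Hochberg over 9258 genes), where 0.0108% of tested genes passed. Between SeW and TW it was 1 of 177 genes (1.91%), 74 of them higher (0.799%) and 103 lower. The split of those calls depended on scaling, with 4390 higher and 5 lower as deposited and 35 higher and 7 lower after scaling to equal medians. No member passed between DSW1200 and TW, where 0 of all tested genes did and 733 (7.92%) had an unadjusted p under 0.05, nor between SeW and DSW1200, where 252 genes passed (2.72%), 116 higher and 136 lower (3733 and 7 as deposited, 52 and 18 after scaling to equal medians). The WR call of *Defa24* was lost without either WR array, with no filter and with no intensity trend, and the number of genes called was then 0. Without TW replicate 1 it was 220. The SeW call of *Defa24* against TW was lost without either SeW array, where 2 genes were called, with no filter (12 called), with no trend (1) and in a fit of only the 4 arrays compared (26).

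Over the 5 members the median log2 difference was 2.62 under WR, 0.35 with DSW1200 and 1.97 with SeW against TW, and 0.63 in SeW against DSW1200. These medians take *Defa5* on all arrays, and *Pla2g2a* in DSW1200 and TW, at the floor of 1. Over the 3 members above the filter the DSW1200 median was 1.13 and the others were the same. The medians of all tested genes were -0.01, -0.02, -0.04 and -0.04 in the same comparisons. Members whose arrays lay above both TW arrays numbered 4 of 5 under WR, 2 with DSW1200 and 3 with SeW, where 16.8%, 15.8% and 19.1% of all genes did so. Between SeW and DSW1200, 3 members were higher without overlap (20.5% of all genes) and 1 was lower (24.6%).

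**Figure D2:**
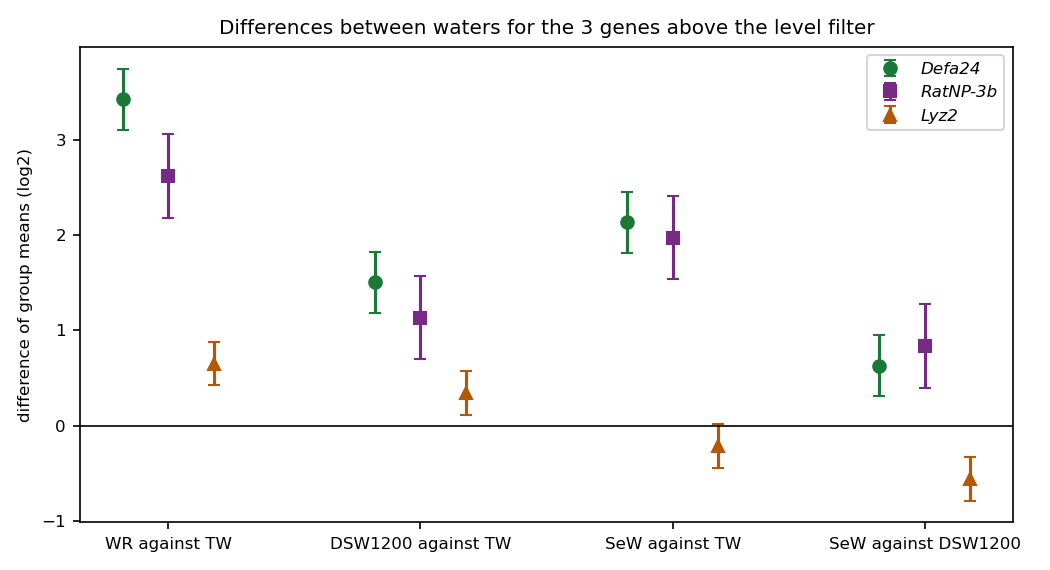
Difference of group means in log2 signal, with standard error bars from the fit over all genes, for *Defa24*, *RatNP-3b* and *Lyz2* in each comparison. *Defa24* lies at 3.42, 1.50 and 2.13 and *Lyz2* at 0.65, 0.35 and -0.21 for WR, DSW1200 and SeW against TW.

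After quantile normalization most other tested genes linked to Paneth cells lay below TW in WR, DSW1200 and SeW. This did not hold in WR and SeW as deposited, or in SeW after scaling to equal medians. In DSW1200 it did not hold without replicate 2 of that group. Of 38 such genes listed, 16 were measured and 7 were above the level filter. None of the 7 passed the test between WR and TW, DSW1200 and TW or SeW and TW, where 1, 0 and 1 of them had an unadjusted p under 0.05 (9.7%, 7.92% and 19.6% of all tested genes). Their median log2 difference was -0.32 under WR, -0.18 with DSW1200 and -0.11 with SeW, with 5, 5 and 6 of the 7 below TW. As deposited these medians were 0.12, -0.08 and 0.87, against 0.38, 0.05 and 0.92 for all tested genes. Their position below the median gene was thus kept, but 4, 2 and 5 of the 7 were above TW. After scaling to equal medians 1, 2 and 4 were above TW. The medians were then -0.38, -0.21 and 0.02, against -0.12, -0.07 and 0.07 for all tested genes. Without DSW1200 replicate 2, however, 4 of the 7 lay above TW in DSW1200, with a median of 0.03 against -0.03 for all tested genes.

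The 1 gene of the list that passed a test was *Slc30a2*, a zinc transporter that loads zinc into Paneth cell granules in the mouse. Its signal was 54.5 and 50.6 in SeW, against 170.7 and 97.7 in DSW1200. It fell by 1.30 in log2 (SE 0.28, adjusted p = 0.0444 by limma), with both SeW arrays below both DSW1200 arrays. It was 105 and 76.0 in WR and 137 and 110 in TW, and the difference of SeW from TW was -1.22 (adjusted p = 0.0577). The call was lost on the values as deposited (log2 difference -0.40, adjusted p = 0.332 by limma) and after scaling to equal medians (-1.13, 0.0883). It was also lost with no filter, with no trend and in a fit of only the arrays compared. Leaving out WR replicate 1 or 2, DSW1200 replicate 1 or SeW replicate 1 or 2 lost it too.

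None of the other 6 tested genes of the list passed the test in any of the 4 comparisons. *Xbp1*, a transcription factor of the secretory stress response, had 577 and 637 under WR, 693 and 513.5 with DSW1200 and 675 and 587 with SeW, against 670 and 685 in TW. *Spdef*, a transcription factor of goblet and Paneth cell maturation, had 34.8 and 33.2 in WR against 42.5 and 55.1 in TW, a log2 difference of -0.51 (adjusted p = 0.510 by limma). *Atg16l1*, an autophagy gene, ranged from 36.8 to 61.8 over the 8 arrays, *Nupr1*, a stress response gene, from 19.0 to 28.1, and *Dll4*, a Notch ligand, from 4.41 to 17.7. *Ang*, which encodes a ribonuclease with antimicrobial activity, ranged from 7.03 to 24.2. *Mmp7*, the protease that activates alpha-defensins in mouse Paneth cells, was at or under 3.49 on every array.

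The other alpha-defensins with a probe set were dim. *Defa7* had 0.25 and 0.325 under WR, 0.15 and 3.31 with DSW1200 and 0.175 and 0.325 with SeW, against 0.175 and 9.61 in TW. *Np4*, named after a neutrophil peptide, had 4.34 and 0.325 under WR, 2.05 and 8.30 with DSW1200 and 0.813 and 5.34 with SeW, against 3.31 and 6.69 in TW. Neither separated any group from TW, and neither was tested.

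The sample was prepared as an epithelial fraction, and markers of epithelial cells were bright. Its purity was not tested. On the macrophage list *Ctss* (1520 to 2286) and *Cd74* (1544 to 2541) were bright too, while its other genes reached at most 153. *Apoa1*, an apolipoprotein of enterocytes, ranged from 4953 to 7269, *Alpi*, the intestinal alkaline phosphatase of the brush border, from 490 to 1204 and *Muc2*, the goblet cell mucin, from 2070 to 3821. *Lgr5*, a stem cell marker of the crypt base, was at most 6.33. The tested genes of the stem cell list were brighter, with *Slc12a2* up to 225, *Prom1* up to 87.9, *Smoc2* up to 56.9, *Cd44* up to 29.0 and *Axin2* up to 21.9. *Slc12a2* and *Prom1* lay above TW without overlap in WR, DSW1200 and SeW. *Axin2* lay below TW without overlap in WR and SeW, and *Cd44* in WR. Of 16 tested villus enterocyte genes, 3, 6 and 14 were above TW under WR, DSW1200 and SeW. After scaling to equal medians 2, 4 and 6 were. In WR *Fabp1* was level with TW, at a log2 difference of 0. Of 9 goblet cell genes 4, 4 and 4 were above TW, and of 5 crypt stem cell genes 3, 4 and 3. None of these lists held a gene past the test. Of the stem cell genes, 2, 1 and 2 had an unadjusted p under 0.05 by limma (9.7%, 7.92% and 19.6% of all tested genes). Of 9 stem cell genes measured, 3, 4 and 3 lay above TW without overlap (16.8%, 15.8% and 19.1% of all genes). Below TW without overlap lay 2, 0 and 1 (18.7%, 17.1% and 24.1%). The part of stem cells in the *Defa24* values was not tested. Median signal as deposited was 8.0 to 9.0 in WR, 6.1 to 7.0 in DSW1200, 10.6 to 11.1 in SeW and 4.3 to 8.4 in TW. The beta-actin 3′/5′ ratio, which rises when RNA is shorter, was 21.1 to 24.8 in WR, 27.1 to 32.8 in DSW1200, 10.9 to 13.6 in SeW and 20.6 to 24.1 in TW. Its part in the results was not tested.

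The defining neutrophil genes were dim. Of 18 neutrophil genes listed, 10 were measured, and their summed signal was 29.6 to 31.0 under WR, 38.3 to 46.4 with DSW1200 and 28.2 to 34.8 with SeW, against 28.6 to 31.2 in TW. *S100a8*, the calprotectin subunit abundant in neutrophils, was at most 2.90 on any array, and its partner *S100a9* at most 6.00. *S100a9* was 3.64 and 3.74 under WR, 3.74 and 4.88 with DSW1200 and 6.00 and 5.49 with SeW, against 0.175 and 2.54 in TW. The arrays of WR, DSW1200 and SeW all lay above those of TW in this gene, at levels below the filter of 6.69. The part of neutrophils in the defensin values was not tested.

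Genes of cycling crypt cells were mostly higher where *Defa24* was higher. Of 17 listed, 16 were measured and 14 tested, and 13 of the 14 were above TW under WR, 12 with DSW1200 and 13 with SeW. None passed the test, while 5, 3 and 6 had an unadjusted p under 0.05, a level reached by 9.7%, 7.92% and 19.6% of all tested genes. Their median log2 difference from TW was 0.86 under WR, 0.40 with DSW1200 and 0.91 with SeW. Without TW replicate 2 the numbers above TW were 10, 7 and 10, and the median in DSW1200 was 0.03. The mean log2 signal of the 16 genes was 3.87 and 4.43 under WR, 3.63 and 3.37 with DSW1200 and 4.39 and 3.90 with SeW, against 3.36 and 3.10 in TW. Their summed signal was 647 to 846 under WR, 416 to 453 with DSW1200 and 651 to 864 with SeW, against 498 to 681 in TW. *Pcna*, described below, made up most of this sum on every array, so the sum mostly follows that gene.

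*Mki67*, a proliferation marker, had 39.6 and 57.6 in WR, 27.8 on both DSW1200 arrays and 56.2 and 40.2 in SeW, against 28.5 and 22.9 in TW. *Top2a*, a topoisomerase of dividing cells, had 15.9 and 23.9 under WR, 20.4 and 14.4 with DSW1200 and 25.9 and 13.8 with SeW, against 8.64 and 9.0 in TW. The arrays of WR and SeW lay above those of TW in both genes. *Pcna*, a DNA replication clamp, overlapped TW (370 to 523) in WR (430 to 547) and SeW (427 to 546). It was 242 to 263 in DSW1200, below TW, where *Defa24* was above TW. The part of these cells in the *Defa24* values was not tested.

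**Figure D3:**
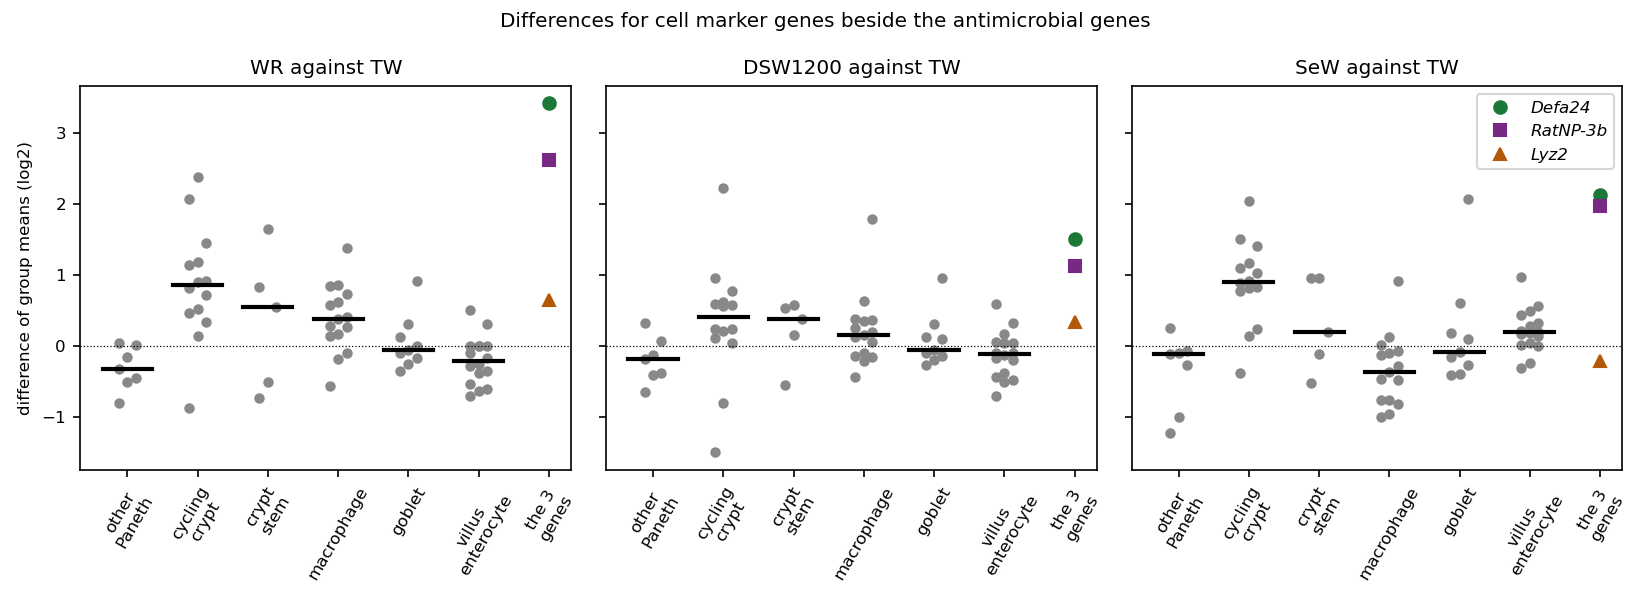
Difference of group means in log2 signal from TW for the tested genes of 6 cell marker lists (grey points, bar at the median), with *Defa24*, *RatNP-3b* and *Lyz2* at the right of each panel. The median of cycling crypt genes lies at 0.86 in WR and that of the other Paneth genes at -0.32, with *Defa24* at 3.42.

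With all 8 arrays, macrophage genes lay mostly on the same side of TW as *Lyz2* in each group. Of 18 listed, 17 were measured and 15 tested, with 12 above TW in WR and 10 in DSW1200, and 12 below TW in SeW. None passed the test, and 3, 1 and 5 had an unadjusted p under 0.05 (9.7%, 7.92% and 19.6% of all tested genes). The median log2 difference from TW was 0.38 under WR, 0.15 with DSW1200 and -0.37 with SeW, and between SeW and DSW1200 it was -0.63, with 13 of 15 lower. In that comparison 6 of the 15 had an unadjusted p under 0.05, against 20% of all tested genes, and none passed the test. As deposited, 14 of the 15 were above TW in SeW and 12 above DSW1200, and 4 and 1 of them were above the median tested gene. Without TW replicate 2, 12 of the 15 were below TW in DSW1200. Without TW replicate 1, 10 of the 15 were below TW in SeW, where *Lyz2* lay above TW. The 17 genes' mean log2 signal was 5.61 and 5.35 under WR, 5.54 and 5.45 with DSW1200 and 4.57 and 4.89 with SeW, against 5.32 and 4.77 in TW. The TW array with the lower *Lyz2* signal was also the one with the lower macrophage mean, whereas in SeW the array with the higher *Lyz2* signal had the lower mean. The summed signal of the 17 genes was 4593 to 5479 under WR, 3622 to 5033 with DSW1200 and 4453 to 4548 with SeW, against 4490 to 4797 in TW. *Ctss* and *Cd74* together made up most of this sum on every array.

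Among the defining genes, *Csf1r*, the receptor for the macrophage growth factor CSF1, had 48.3 and 49.5 under WR, 35.9 and 33.4 with DSW1200 and 15.9 and 24.2 with SeW, against 34.6 and 21.1 in TW. *Adgre1*, which encodes the F4/80 antigen, had 10.2 and 13.6 under WR, 10.9 and 9.58 with DSW1200 and 3.09 and 8.35 with SeW, against 11.3 and 3.81 in TW. *Cd68*, a lysosomal protein of macrophages, did not share this order, with 18.4 and 10.2 in WR against 22.6 and 18.4 in TW. None of the defining genes was at 0. The part of macrophages in the *Lyz2* signal was not tested.

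**Figure D4:**
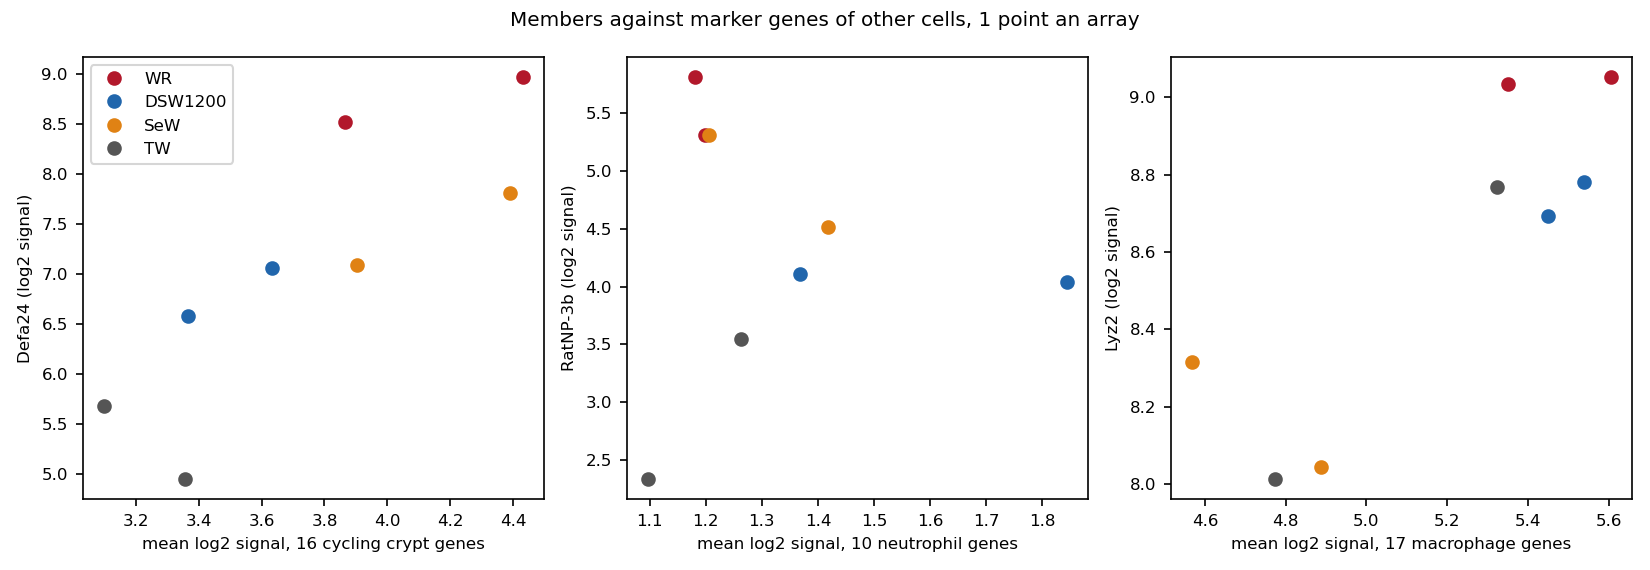
Log2 signal of *Defa24*, *RatNP-3b* and *Lyz2* against the mean log2 signal of cycling crypt, neutrophil and macrophage genes, 1 point for each of the 8 arrays, coloured by group. The cycling mean runs from 3.10 on a TW array to 4.43 on a WR array, and the macrophage mean from 4.57 on a SeW array to 5.61 on a WR array.

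Pancreatic acinar genes encode digestive enzymes, a phospholipase A2 among them, and 18 of 19 listed were measured. Their sum was 165 and 756 under WR, 147 and 240 with DSW1200 and 138 and 151 with SeW, against 261 and 144 in TW. The array with the high sum, WR replicate 2, had the lower *Pla2g2a* signal of the WR pair (6.01 against 20.3) and the higher *Defa24* signal (502 against 367). *Pla2g1b*, the pancreatic phospholipase A2, was at most 4.22 on any array. *Prss1*, a trypsinogen, had 27.5 and 78.4 under WR, 7.33 and 21.3 with DSW1200 and 0.813 and 7.54 with SeW, against 19.5 and 3.01 in TW. The part of acinar RNA in the *Pla2g2a* and *Defa24* values was not tested.

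The antimicrobial genes of other epithelial cells showed no direction that held across scalings. Of 23 listed, 17 were measured and 10 tested, with 8 above TW under WR, 6 with DSW1200, 8 with SeW and none at an unadjusted p under 0.05. After scaling to equal medians, 4, 5 and 5 of the 10 were above TW. *Reg3b*, a bactericidal lectin of enterocytes, had 2605 and 2733 under WR, 3656 and 431 with DSW1200 and 1819 and 2888 with SeW, against 1000 and 1877 in TW. *Reg3g*, its close relative, had 663 and 857 under WR, 1673 and 199 with DSW1200 and 691 and 1253 with SeW, against 364 and 610 in TW. *Reg3a*, another lectin of the family, was at most 8.35 on any array. The 2 DSW1200 arrays lay far apart in *Reg3b* and *Reg3g*, while they were close in *Defa24* (134 and 96.0) and *RatNP-3b* (17.3 and 16.5).

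The 5 tested genes whose log2 levels were most like the mean of the 3 tested members, after each member was set to equal variance, were *Rpl23a* (Pearson r = 0.972), *Nuf2* (0.946), *Antxr2* (0.941), *Nudt1* (0.929) and *Rbm34* (0.925), each over 8 arrays that share their groups. *Rpl23a*, a ribosomal protein gene, had 1050 and 1241 under WR, 986 and 891 with DSW1200 and 974 and 877 with SeW, against 751 and 765 in TW. *Nuf2*, a kinetochore gene, had 28.1 and 30.3 under WR, 19.1 and 17.5 with DSW1200 and 25.3 and 18.6 with SeW, against 13.0 and 15.8 in TW. *Antxr2*, an anthrax toxin receptor gene, had 48.5 and 63.8 under WR, 41.5 and 32.8 with DSW1200 and 42.5 and 33.2 with SeW, against 20.7 and 28.5 in TW. All 3 were highest in WR and lowest in TW on every array, as *Defa24* was. They were picked for likeness over these same arrays, so the shared order supports nothing. *Rbm34* overlapped TW (16.5 and 13.3) in SeW (21.5 and 16.3).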

How the data were processed

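The authors deposited 1 linear signal intensity for each probe set and array, computed with MAS5 according to the submitters' processing notes. Neither its version nor its scaling target is given in the sources used here. The methods mention quantile normalization, but the medians of the deposited intensities differed between arrays, so quantile normalization was applied. A floor of 1 was set before taking log2. Of several probe sets of a gene, the one of highest mean log2 signal stood for it, and the 9258 genes whose mean signal exceeded 6.69, the median over probe sets, entered the test.

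Group differences came from limma 3.58.1 (R 4.3.3) in 1 model over all 8 arrays, with an intensity trend, Benjamini-Hochberg adjustment and a threshold of 0.05. The median standard error of a log2 difference was 0.264, and the small number of arrays limits the precision. An exact permutation test of 2 against 2 arrays cannot go below 0.333. Pearson correlations are across 8 arrays and carry no p. Promoters were taken from RefSeq (GRCr8) and aligned with Biopython 1.88. Of the members, 3 have a promoter entry.

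Named genes were the members, the defensins of the Paneth list with its brightest other genes, genes from the start of each cell list, the 5 genes most like the members and any Paneth gene past the threshold. *Pla2g1b* and *Mmp7* were added after their values were seen. *Ctss*, *Cd74*, *Fabp1* and the tested stem cell genes were also named outside this rule, with their values known. The members and lists were chosen with earlier results of these data known. Alternatives were the values as deposited, equal medians, no filter and a stricter one, an offset of 32, the mean of probe sets, no trend, a fit of the compared arrays alone, a replicate block, a 2-fold criterion and each array left out. The cell lists under other scalings and without each array were added after seeing the data.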

Additional observations from a re-analysis of the deposited data

Results flagged for a closer look

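*Slc30a2* was marked because the test of SeW against DSW1200 separated the 2 drinking waters in this gene, with a log2 difference of -1.30 (SE 0.28, adjusted p = 0.0444 by limma). The signal was 54.5 and 50.6 in SeW, against 170.7 and 97.7 in DSW1200. The adjusted p by limma was 0.0519 with only the arrays compared, 0.138 with no filter and 0.137 with no trend. The call was also lost on the values as deposited and after scaling to equal medians. Leaving out either SeW array, DSW1200 replicate 1 or either WR array lost it too.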

How the results depend on the processing

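*Defa24* and *RatNP-3b* kept their direction in 17 of 17 alternatives in each of the 4 comparisons, and *Defa24* ranged from 2.67 to 3.79 in WR against TW on the log2 scale. Most of the 17 could not change the direction of any member. The filters, the trend, the replicate block and the choice of arrays fitted leave a difference of group means as it was. Averaging probe sets does too, with 1 for each member, as does leaving out an array outside the comparison. As deposited, *RatNP-3b* also passed in WR and SeW against TW and in SeW against DSW1200, and *Defa24* in SeW against DSW1200. Of 9257 genes tested on that scale, 3, 4395 and 3740 passed in these comparisons, and 4390 and 3733 of the SeW calls were higher. *RatNP-3b* passed in SeW against TW after scaling to equal medians and without TW replicate 2, and in WR against TW without TW replicate 1, where *Lyz2* passed too. *Lyz2* kept its direction in 17 of 17 in WR against TW, 16 in DSW1200 against TW, 15 in SeW against TW and 16 in SeW against DSW1200. The members' median moved with an offset of 32 to 0.60 in WR and 0.52 in SeW against TW, and as deposited to 2.91 in SeW against TW and 1.55 in SeW against DSW1200. The number of genes called moved far more. For WR against TW it was 3 as deposited, 0 with no filter, 0 with no trend and 444 by the 2-fold criterion, and 0 to 220 with 1 array left out. For DSW1200 against TW it was 394 by the 2-fold criterion and 0 to 131 with 1 array left out, 131 without TW replicate 1. For SeW against TW it was 4395 as deposited, 42 with equal medians, 12 unfiltered, 64 with probe sets averaged, 1 with no trend, 26 with only the 4 arrays compared and 630 by the 2-fold criterion, and 2 to 518 with 1 array left out, 518 without TW replicate 1 and 2 without either SeW array. For SeW against DSW1200 it was 3740 as deposited, 70 with equal medians, 19 unfiltered, 141 with probe sets averaged, 1 with no trend and 574 by the 2-fold criterion, and 3 to 437 with 1 array left out, 3 without SeW replicate 2. The cause was not tested. With the replicate number as a block, 114 genes were called in SeW against TW and 116 in SeW against DSW1200, and 1 and 0 in WR and DSW1200 against TW. The numbers did not pair the arrays, since deviations of same-numbered arrays correlated between -0.065 and 0.040. Genes under a signal of 6.69, *Pla2g2a* and *Defa5* among them, were too dim to test, and 0.0810% of tested values lay at the floor.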
